A study of Mus musculus with 18 samples.

Results

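The genes described here carry iron into the cell, store it, release it and sense it. They are Tfrc, Steap3, Slc11a2 and Slc11a1 (uptake and transfer across membranes), Hmox1 (release from heme), Fth1 and Ftl1 (storage), Slc40a1 (export), and Aco1 and Ireb2 (sensing). The 10 genes were chosen by name, out of 50686 gene identifiers in the count table. Steap3 was on the list with its low level in Tbk1+/- microglia already known, so its values in comparisons with those libraries are given as a description. The other members and the further lists below were also chosen with earlier results of these data known. Their calls are therefore not known to be independent of that choice. All 10 were detected in every library and passed the filter on low counts, which left 13447 genes for testing.

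The series profiled messenger RNA in primary microglia, the resident macrophages of the brain, grown from forebrains of C57BL/6 pups at postnatal day 2. Cells were cultured for 7 days, given fresh medium, cultured for 7 more days and then shaken off the flask. There were 6 genotypes with 3 libraries each: WT; Tbk1+/-, with 1 Tbk1 allele lost; Tak1ΔM/+; Tbk1+/-;Tak1ΔM/+, with both changes (the double heterozygote below); Tbk1+/-;Ripk1D138N/D138N, in which both Ripk1 alleles carry a substitution that inactivates the kinase; and Tbk1+/-;Tak1ΔM/+;Ripk1D138N/+, in which 1 does (the triple mutant below). RIPK1, a kinase that drives cell death and inflammation, is held in check by the kinases TBK1 and TAK1. The labels do not say which promoter or cell type governs the ΔM deletion of Tak1, whose gene is Map3k7. Nor do they state separate animals or cultures for the 3 libraries of each genotype, so p-values measure the spread between libraries, which may be technical.

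Iron enters most cells bound to transferrin. The transferrin receptor (Tfrc) carries it into endosomes, where the reductase STEAP3 turns ferric into ferrous iron, and DMT1 (Slc11a2) moves it into the cytosol. Macrophages, microglia among them, also take up iron with the red cells and debris they engulf; heme oxygenase 1 (Hmox1) opens the heme ring, NRAMP1 (Slc11a1) carries metal out of the phagosome, ferritin (Fth1 and Ftl1) stores the surplus and ferroportin (Slc40a1) exports it. The iron regulatory proteins, encoded by Aco1 and Ireb2, bind a short hairpin in messenger RNAs when iron is scarce. Bound near the start of a message the hairpin blocks translation, and bound behind the coding region it protects the message from decay. A change in ferritin or ferroportin protein can therefore occur with no change in read counts, which report messenger RNA alone.

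The hairpin is shown first because it marks the messages that iron regulatory proteins are known to bind. Annotated untranslated regions (UTRs) of GENCODE M21 (GRCm38, the mm10 assembly) were searched on the transcript strand for CNNNNNCAGTGN, where the last base may be any but G, followed by 5 bases that can pair with the 5 before the loop. The search found 7 matches in 4 of the 10 genes. The 5′ UTR of Fth1 had 1 (chr19:9982731-9982760, plus strand), that of Ftl1 had 1 (chr7:45459779-45459808, minus strand) and that of Slc40a1 had 1 (chr1:45925465-45925494, minus strand). The 3′ UTR of Tfrc had 4, on the plus strand at chr16:32631218-32631247, chr16:32631597-32631626, chr16:32631662-32631691 and chr16:32631709-32631738. Each is printed 5′ to 3′ with its loop in capitals:
Fth1: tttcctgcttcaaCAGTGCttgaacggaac
Ftl1: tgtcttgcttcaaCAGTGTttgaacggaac
Slc40a1: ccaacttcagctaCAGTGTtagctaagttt
Tfrc, site 1: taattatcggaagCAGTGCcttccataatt
Tfrc, site 2: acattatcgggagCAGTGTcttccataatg
Tfrc, site 3: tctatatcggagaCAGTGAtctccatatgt
Tfrc, site 4: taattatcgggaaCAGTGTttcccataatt
Over the whole annotation 23 of 20916 genes with a 5′ UTR (0.110%) and 100 of 21045 with a 3′ UTR (0.475%) held a match. No match was found for Slc11a2, Steap3, Slc11a1, Hmox1, Aco1 or Ireb2. This says only that their annotated UTRs lack these letters flanked by 5 full pairs. A hairpin with an unpaired base in that stem, or with other loop letters, would be missed, so its absence is not shown.

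Libraries held 8016559 to 22989116 counts, and the lowest total was that of Tbk1+/-;Tak1ΔM/+ library 2. All 10 microglial and macrophage markers passed the filter, with summed levels of 7079 to 9025 CPM (counts scaled to a library total of 1000000 after TMM normalization, the trimmed mean of M values). Markers of the oligodendrocyte lineage summed to 50.4 to 88.6 CPM, those of astrocytes to 21.1 to 65.2 CPM, those of neurons to 0.53 to 20.4 CPM and those of fibroblast, mural and endothelial cells to 0.624 to 45.9 CPM. The summed astrocyte markers were lower in the double heterozygote (21.1 to 29.5 CPM) than in WT (43.5 to 56.0 CPM). Over all libraries Aldh1l1 (8.18 to 35.0 CPM) and Aldoc (5.92 to 27.1 CPM) were the highest of them. No other astrocyte marker exceeded 7.08 CPM, so the sum rests mostly on these genes. Their part in the results below was not tested. Of 8 erythroid genes with a symbol in the table none passed the filter, and the hemoglobin genes Hba-a1, Hba-a2 and Hbb-bs had 0 counts in every library, where a count of 0 allows up to 3 counts. Tbk1 itself stood at 50.5, 65.6 and 57.1 CPM in the Tbk1+/- libraries and at 106, 104 and 149 CPM in WT. In 5 libraries labelled Tbk1+/- it lay at the WT level: Tbk1+/-;Ripk1D138N/D138N libraries 1 and 3 (130 and 131 CPM, against 54.9 CPM in library 2) and all 3 Tbk1+/-;Tak1ΔM/+;Ripk1D138N/+ libraries (107 to 123 CPM). Results from these genotypes therefore concern libraries labelled as such. Map3k7 ranged from 10.4 to 19.2 CPM in WT and, below it, from 7.34 to 9.98 CPM in Tak1ΔM/+. Double heterozygous libraries 1 and 2 (15.8 and 11.4 CPM) lay within the WT range, and library 3 (6.57 CPM) below it. Map3k7 counts therefore do not bear out the Tak1 label in double heterozygous libraries 1 and 2. Tbk1 matched the label in all libraries of the double heterozygote (55.1 to 66.0 CPM). The share of counts from 13 mitochondrial genes was 1.82% to 2.20% in Tbk1+/-, 0.367% to 0.512% in Tbk1+/-;Tak1ΔM/+ and 0.671% to 1.62% in WT.

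Per length of message the ferritins stood far above the other iron genes. Over the 18 libraries Fth1 averaged 3854 CPM per kilobase of exon and Ftl1 averaged 3456 CPM per kilobase, ranks 7 and 10 among 13431 tested genes with a length. Hmox1 followed at 619 CPM per kilobase, Slc11a1 at 133 and Slc40a1 at 43.0. The ranges of these 3 over libraries overlapped neither each other nor the genes next to them in the order. Further down, the highest Tfrc library (25.1 CPM per kilobase) exceeded the lowest Slc40a1 library (24.6). Below them came Aco1 at 20.0 CPM per kilobase, Tfrc at 16.6, Slc11a2 at 13.5, Steap3 at 6.74 and Ireb2 at 5.17. Each of these 5 overlapped the next over the libraries, as did Fth1 and Ftl1, so neighbours in the order are not separated by the spread. Aco1 lay above Steap3 and Ireb2 in every library, and Tfrc above Ireb2.

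**Figure D1:**
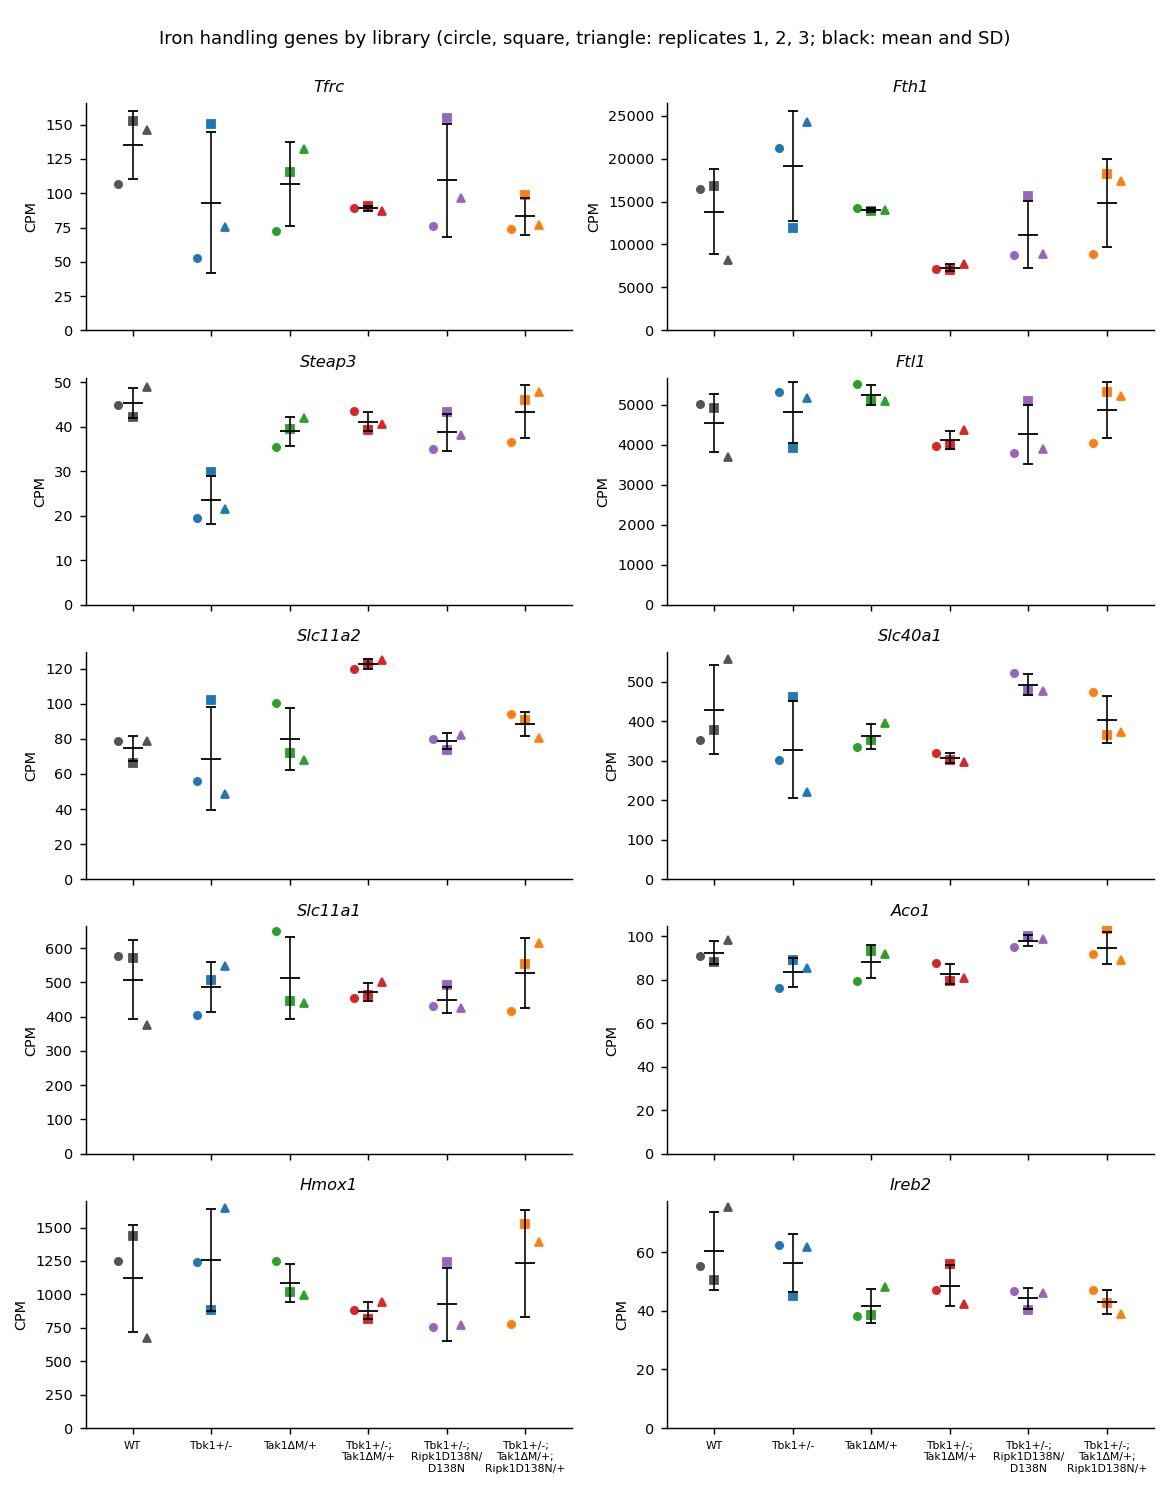
Level of each of the 10 iron genes in CPM (linear axis from 0) in every library, by genotype; points are libraries, and bars are the mean and SD of 3. Steap3 is lowest in the 3 Tbk1+/- libraries (19.4 to 29.7 CPM), Fth1 is lowest in the 3 Tbk1+/-;Tak1ΔM/+ libraries (6981 to 7738 CPM) and Slc11a2 is highest in them (119.9 to 125 CPM).

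These are bulk libraries, in which fewer cells of a type and less RNA per cell cannot be told apart. In a joint test of the 6 genotypes (edgeR's quasi-likelihood test with Benjamini-Hochberg adjustment over all 13447 genes, calls at an adjusted p under 0.05) 1 member was called, Steap3, against 7.18% of all genes tested. An unadjusted p under 0.05 was reached by 5 of the 10, where 23% of all genes reached it. DESeq2 called 3 members and 2277 of all genes, where edgeR called 966. The contrast of Tbk1+/-;Tak1ΔM/+ with Tbk1+/- held the most calls, 3 of the 10, where 14.7% of all genes were called. Steap3 and Slc11a2 were higher, beside 6.44% of all genes, and Fth1 was lower, beside 8.24%. The low Tbk1+/- values of Steap3, known when it was listed, enter this count and that of the joint test. Its part in both counts is therefore a description. In Tbk1+/- against WT, where 0.0521% of all genes were called, the 1 member called was Steap3, the gene listed with that value known. The joint test called 0 members without Tbk1+/- library 1 or 3 (482 and 604 of all genes) and 4 without Tbk1+/- library 2 (1336 of all genes). The Steap3 call against WT ended when any single library was left out, except Tbk1+/- library 2, Tbk1+/-;Ripk1D138N/D138N library 2 and triple mutant library 1. No member was called between Tbk1+/-;Tak1ΔM/+ and WT, where 6.07% of all genes were; 3 had an unadjusted p under 0.05 (20.2% of all genes), DESeq2 called 2 (Fth1 and Slc11a2) and limma-voom 1 (Slc11a2). Against Tak1ΔM/+ the double heterozygote again gave 0 member calls beside 2.79% of all genes, with 3 members at an unadjusted p under 0.05 (15.9% of all genes) and 0 called by DESeq2 or limma-voom. The libraries of both groups did not overlap for 5 of 10 members against WT, where 29.6% of all genes did not, and for 5 of 10 against Tak1ΔM/+, where 24.6% did not.

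In Tak1ΔM/+ against WT edgeR called 0 members and 0.0149% of all genes, with 1 member at an unadjusted p under 0.05 (9.47% of all genes). The libraries labelled Tbk1+/-;Ripk1D138N/D138N gave 0 calls against WT among the members and among all genes (percent called 0), with 1 member at an unadjusted p under 0.05 (5.12% of all genes). Those labelled Tbk1+/-;Tak1ΔM/+;Ripk1D138N/+ also gave 0 of both against WT (percent called 0), with 2 members at an unadjusted p under 0.05 (7.99% of all genes). DESeq2 and limma-voom called 0 members in each of these 3 comparisons. Between Tbk1+/-;Ripk1D138N/D138N and Tbk1+/- edgeR called 0 members beside 0.521% of all genes, with 4 at an unadjusted p under 0.05 (15.3% of all genes), while DESeq2 called 1 (Steap3) and limma-voom 0. Without Tbk1+/- library 2 edgeR called 3, and the calls among all genes in that fit are not given here. In Tbk1+/- against WT, leaving out the same library moved the calls among all genes from 7 to 334. The triple mutant against the double heterozygote gave 0 member calls beside 2.45% of all genes; 2 members had an unadjusted p under 0.05 (15.5% of all genes), DESeq2 called 1 and limma-voom 0. These comparisons share WT, Tbk1+/- or double heterozygous libraries and are not independent of each other. The share of all genes whose libraries do not overlap is not given for comparisons with Tbk1+/- or for the triple mutant against the double heterozygote. Gaps between libraries in those comparisons are descriptions.

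**Figure D2:**
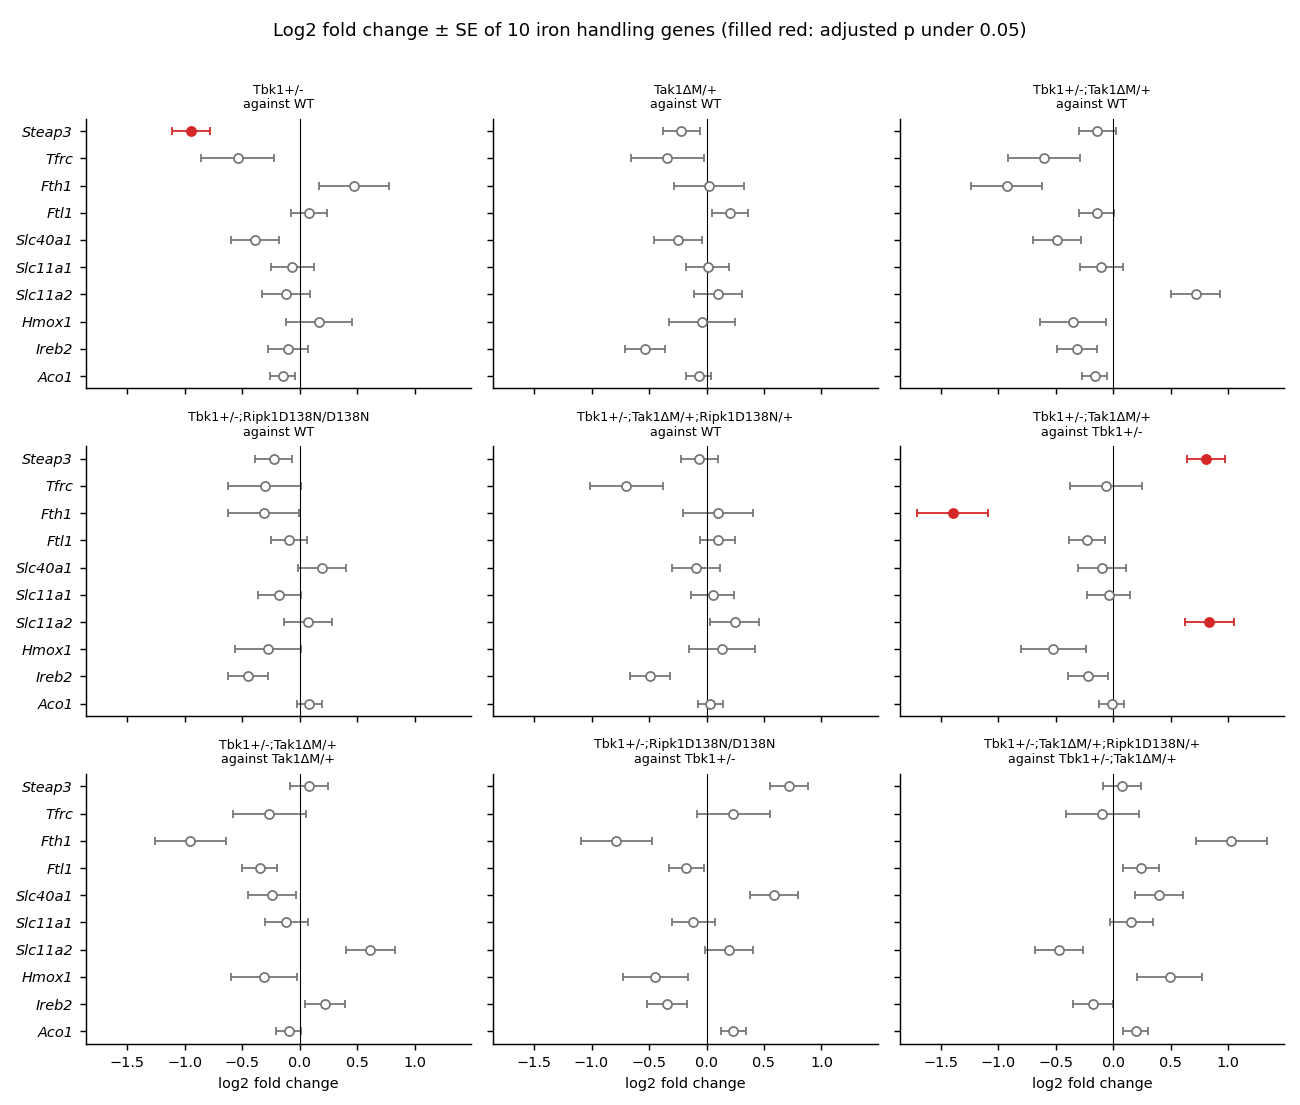
Fitted log2 fold change (horizontal axis; points, with bars of 1 SE) of each of the 10 genes in 9 comparisons between genotypes, 1 panel each; filled red points have an adjusted p under 0.05 in edgeR's quasi-likelihood test. Red points appear for Steap3, Fth1 and Slc11a2 in Tbk1+/-;Tak1ΔM/+ against Tbk1+/-, and for Steap3 in Tbk1+/- against WT, the value known when the gene was listed.

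Uptake begins with Tfrc (ENSMUSG00000022797, chromosome 16, 32608920 to 32632794, plus strand), the transferrin receptor. WT libraries held 107, 153 and 146 CPM and Tbk1+/-;Tak1ΔM/+ libraries 89.1, 90.6 and 87.0 CPM. The double heterozygous libraries were all below WT, with a spread far narrower than that of any other genotype (SD 1.84 CPM against 24.9 CPM in WT). The log2 difference was -0.60 (SE 0.32, adjusted p = 0.304, edgeR). Tbk1+/- libraries ranged from 52.6 to 151 CPM and covered the levels of nearly all other libraries. The triple mutant, at 73.7, 98.6 and 77.1 CPM, also lay below WT without overlap, with a log2 difference of -0.70 (SE 0.32, adjusted p = 0.588, edgeR). With all libraries and the low-count filter, edgeR called Tfrc in no comparison. Without that filter it was called in the triple mutant against WT (adjusted p = 0.00593, edgeR) and in the double heterozygote against WT, as it was there in a fit of only the libraries compared.

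Steap3 (ENSMUSG00000026389, chromosome 1, 120190757 to 120272705, minus strand), the endosomal reductase that prepares iron for DMT1, was lowest in Tbk1+/- microglia. Its level was 44.8, 42.2 and 49.0 CPM in WT and 19.4, 29.7 and 21.5 CPM in Tbk1+/-. Means were 45.3 ± 3.42 and 23.5 ± 5.48 CPM (SD, n = 3). The Tbk1+/- libraries lay below every other library of the series. Tak1ΔM/+ libraries held 35.4, 39.6 and 41.9 CPM. In the double heterozygote, which lacks the same Tbk1 allele, Steap3 stood at 43.6, 39.3 and 40.5 CPM, in the range of WT and Tak1ΔM/+. Libraries labelled Tbk1+/-;Ripk1D138N/D138N had 34.9, 43.3 and 38.1 CPM, and the value of 43.3 CPM is that of library 2, whose Tbk1 level matched its label. The triple mutant had 36.5, 45.9 and 47.8 CPM. The log2 difference of Tbk1+/- from WT was -0.95 (SE 0.16), and the double heterozygote exceeded Tbk1+/- by 0.81 on the same scale. Both are descriptions, because the low Tbk1+/- value put Steap3 on the list. Markers of border macrophages and monocytes were also higher in Tbk1+/- than in WT (summed level 505 to 888 CPM against 360 to 460 CPM over 8 markers). Among them Mrc1 and Pf4 were above 100 CPM in every library, Lyve1 ranged from 0.106 to 156 CPM, and Cd163 did not exceed 2.93 CPM. Their part in the Steap3 values was not tested.

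The genes whose profile over the 18 libraries was most like that of Steap3 were Csk and H2-M3 (Pearson r of log2 CPM 0.87 each), then Tmem106a, Jade2 and Slc6a6 (0.84 each), among 8928 tested genes that averaged 5 CPM or more. H2-M3 averaged 46.3 ± 9.50 CPM in WT, 22.3 ± 6.28 CPM in Tbk1+/- and 42.2 ± 7.98 CPM in the double heterozygote (SD, n = 3). Jade2 averaged 32.4 ± 7.10, 13.9 ± 10.1 and 28.7 ± 3.49 CPM in the same order. Both were lowest in Tbk1+/-, which their choice by likeness to Steap3 fixes. Among the other iron genes Tfrc had the profile closest to Steap3 once genotype means were removed (r = 0.82, 0.52 before), so libraries high in one within a genotype tended to be high in the other. All 18 points share library preparation and depth differences, and these coefficients are descriptions.

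Slc11a2 (ENSMUSG00000023030, chromosome 15, 100387898 to 100425072, minus strand), encoding the proton-coupled transporter DMT1 that passes ferrous iron out of the endosome, was highest in the double heterozygote. Its level was 119.9, 123 and 125 CPM in Tbk1+/-;Tak1ΔM/+, against 78.7, 66.5 and 78.8 CPM in WT. Tak1ΔM/+ libraries had 100.2, 72.2 and 67.7 CPM and Tbk1+/- libraries 55.8, 102 and 48.3 CPM. The 3 double heterozygous libraries were the highest of all 18. Against Tbk1+/- Slc11a2 rose by 0.84 on the log2 scale (SE 0.21, adjusted p = 0.0130, edgeR), higher in 3 of 3 libraries. The call ended without Tbk1+/- library 1 (adjusted p = 0.0743) and without Tbk1+/- library 3 (adjusted p = 0.0684), and on adding mitochondrial share as a covariate (log2 difference 0.34, adjusted p = 0.679). Against WT the difference was 0.72 (SE 0.21, adjusted p = 0.0513, edgeR), and DESeq2 gave an adjusted p of 0.0136. Against Tak1ΔM/+ it was 0.62 (SE 0.21, adjusted p = 0.138, edgeR). Without Tbk1+/- library 2 both were calls (adjusted p = 0.00577 and 0.0190), and that against WT also without Tbk1+/- library 3 (adjusted p = 0.0325) or Tak1ΔM/+ library 1 (adjusted p = 0.0422). Of 28 alternative fits (without 1 library or with another setting) 8 called the difference from WT and 2 that from Tak1ΔM/+. With the other settings these differences ranged from 0.46 to 0.73 and from 0.42 to 0.64.

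In the libraries labelled as the triple mutant, whose Tbk1 level was that of WT, Slc11a2 stood at 94.0, 90.8 and 80.5 CPM. These libraries lay between WT and the double heterozygote and overlapped neither. The log2 difference from the double heterozygote was -0.47 (SE 0.21, adjusted p = 0.283, edgeR), so it did not pass the test. Libraries labelled Tbk1+/-;Ripk1D138N/D138N held 79.9, 73.6 and 82.3 CPM, a range that overlapped WT. The predicted gene Gm5475 lies opposite Slc11a2 and had 11 counts in all, and the library chemistry does not mark strand.

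Slc11a1 (ENSMUSG00000026177, chromosome 1, 74375195 to 74386062, plus strand), the phagosomal metal transporter NRAMP1, had nearly level means. They ran from 449 ± 37.2 CPM in libraries labelled Tbk1+/-;Ripk1D138N/D138N to 527 ± 102 CPM in the triple mutant (SD, n = 3), with 508 ± 116 CPM in WT. Single libraries spanned 374 to 649.5 CPM and all genotypes overlapped. No comparison called it. The relatives Slc11a1 and Slc11a2, which encode transporters of one family, had unlike profiles: only Slc11a2 was called in the double heterozygote against Tbk1+/-, although the difference between the genes was not tested.

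Hmox1 (ENSMUSG00000005413, chromosome 8, 75093621 to 75100589, plus strand), the enzyme that frees iron from heme, varied widely between libraries of one genotype. WT libraries held 1249, 1439 and 671 CPM and Tbk1+/- libraries 1241, 884 and 1650 CPM. The double heterozygote had 879.8, 813 and 939 CPM, within the span of WT. Its log2 difference from Tbk1+/- was -0.52 (SE 0.29, adjusted p = 0.246, edgeR). Against Tak1ΔM/+ (1252, 1014 and 997 CPM) the double heterozygous libraries did not overlap, with a log2 difference of -0.31 (SE 0.29, adjusted p = 0.662, edgeR). Libraries labelled Tbk1+/-;Ripk1D138N/D138N held 759, 1243 and 772 CPM and the triple mutant 776, 1528 and 1390 CPM, each with a wide gap between its libraries.

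Fth1 (ENSMUSG00000024661, chromosome 19, 9980598 to 9985098, plus strand) encodes the ferritin heavy chain, which oxidises iron as it enters the ferritin shell. It was lowest in the double heterozygote. Levels were 7089, 6981 and 7738 CPM in Tbk1+/-;Tak1ΔM/+, 16486, 16833 and 8142 CPM in WT, and 14304, 13872 and 13979 CPM in Tak1ΔM/+. Tbk1+/- libraries had 21226, 11974 and 24228 CPM. The 3 double heterozygous libraries were the lowest of all 18, and the Tbk1+/- libraries included the highest. Fth1 fell by 1.40 on the log2 scale between Tbk1+/- and the double heterozygote (SE 0.31, adjusted p = 0.00614, edgeR), lower in 3 of 3 libraries. Leaving out each library in turn kept the adjusted p between 0.00123 and 0.0297. Adding mitochondrial share as a covariate gave a difference of -0.29 (adjusted p = 0.803).

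Against the other genotypes the Fth1 differences did not pass the threshold in edgeR with all libraries. The double heterozygote differed from WT by -0.93 (SE 0.31, adjusted p = 0.0835) and from Tak1ΔM/+ by -0.95 (SE 0.31, adjusted p = 0.117) on the log2 scale. WT library 3, at 8142 CPM, held about as much Fth1 as the double heterozygote, and without it the difference from WT was -1.21 (adjusted p = 0.0286), a call. It was also a call without Tbk1+/- library 2 (adjusted p = 0.0486) or triple mutant library 1 (adjusted p = 0.0491), and in DESeq2 (adjusted p = 0.0429). Of the 28 alternative fits 7 called the difference from WT. Leaving out each library in turn gave -1.21 to -0.77 (adjusted p = 0.0286 to 0.266, edgeR), and the other settings gave -1.14 to -0.32. The triple mutant had 8874, 18217 and 17386 CPM, above the double heterozygote in every library. The log2 difference was 1.03 (SE 0.31, adjusted p = 0.0929). It became a call without triple mutant library 1 (1.28, adjusted p = 0.0258) and in DESeq2 (adjusted p = 0.0436). Of the 28 alternative fits 5 called it. Libraries labelled Tbk1+/-;Ripk1D138N/D138N had 8798, 15624 and 8924 CPM, and the value of 15624 CPM was that of library 2, whose Tbk1 level matched its label. Their difference from Tbk1+/- was -0.78 (adjusted p = 0.229), and without libraries 1 and 3 it was -0.29 (adjusted p = 0.906, edgeR, with the lone library assumed to vary like the other groups). The interaction of the Tbk1 and Tak1 alleles sets the double heterozygote against the sum of both single changes. It was -1.42 for Fth1 (SE 0.43, adjusted p = 0.0990) and 0.73 for Slc11a2 (SE 0.30, adjusted p = 0.221, both edgeR). Without Tbk1+/- library 2 the values were -1.68 (adjusted p = 0.0233) and 1.13 (adjusted p = 0.00473, both edgeR), both calls. Of the 28 alternative fits 3 called Fth1 and 1 called Slc11a2. With settings other than a library left out, the interaction ranged from -2.01 to -0.50 for Fth1 and from 0.29 to 0.81 for Slc11a2. With all libraries the 1 member called in the interaction was Steap3, whose known low Tbk1+/- values enter the contrast, beside 1.75% of all genes.

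Fth1 varied with the share of mitochondrial counts. Mitochondrial genes made up less than 1% of counts in 8 libraries, the 3 of the double heterozygote and 5 others: WT library 3, Tak1ΔM/+ library 1, Tbk1+/-;Ripk1D138N/D138N libraries 1 and 3 and triple mutant library 1. In those 5 Fth1 ranged from 8142 to 14304 CPM with a median of 8874 CPM, and in the double heterozygote from 6981 to 7738 CPM. In the 10 libraries with a larger share it ranged from 11974 to 24228 CPM. The limit of 1% was set after the shares were seen. Slc11a2 was 78.8 to 100.2 CPM in the same 5 libraries, 119.9 to 125 CPM in the double heterozygote and 48.3 to 102 CPM in the 10. Across all 18 libraries log2 Fth1 and the log2 share had r = 0.81, and r = 0.70 after removal of genotype means. Neither Tbk1+/- nor WT (0.671% to 1.62%) overlaps the double heterozygote (0.367% to 0.512%) in this share. Genotype and share therefore cannot be told apart in either comparison.

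**Figure D3:**
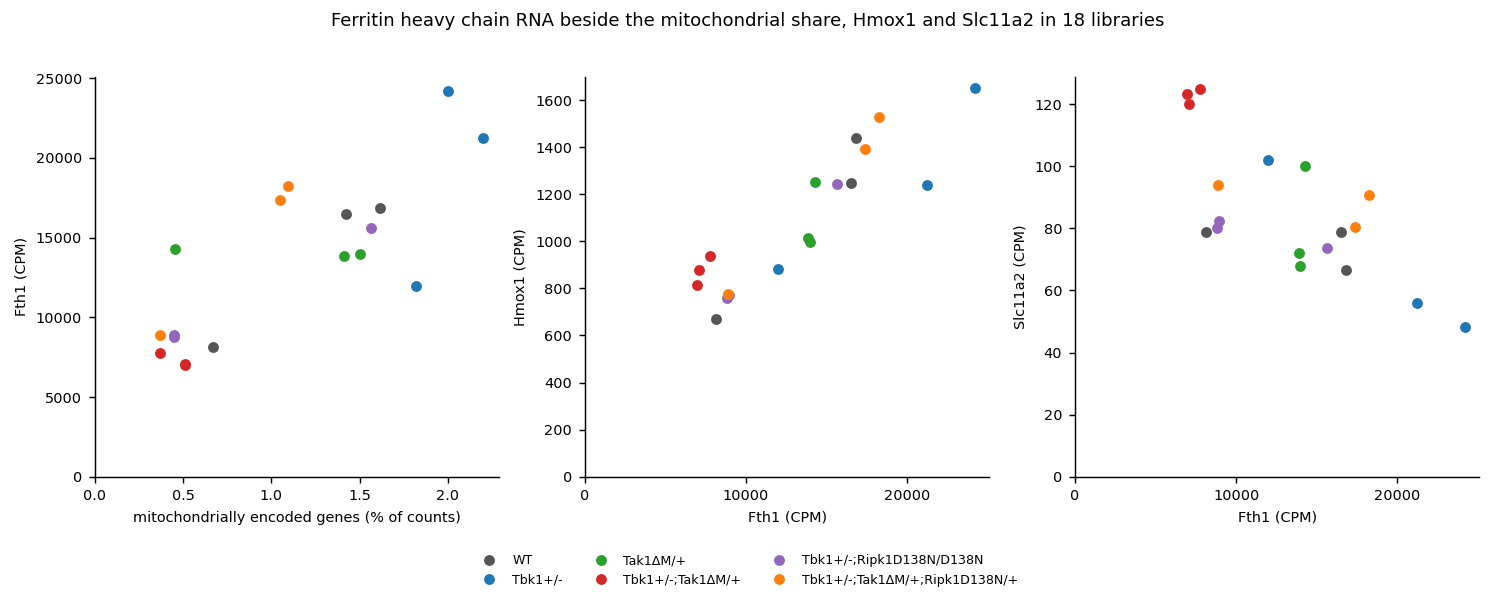
Fth1 level (CPM) against the share of counts from mitochondrial genes (percent), and Hmox1 and Slc11a2 levels (CPM) against Fth1, with 1 point for each of 18 libraries coloured by genotype and all axes linear from 0. The 3 double heterozygous libraries sit at the lowest Fth1 (6981 to 7738 CPM) and the highest Slc11a2 (119.9 to 125 CPM), and Hmox1 increases with Fth1 across libraries.

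Ftl1 (ENSMUSG00000050708, chromosome 7, 45457944 to 45459884, minus strand), the ferritin light chain that nucleates the iron core, varied less. Its levels were 3961, 3989 and 4369 CPM in the double heterozygote, 5006, 4917 and 3695 CPM in WT and 5323, 3925 and 5167 CPM in Tbk1+/-. The double heterozygote overlapped both. It lay below Tak1ΔM/+ (5514, 5079 and 5088 CPM) without overlap, by 0.35 on the log2 scale (log2 difference -0.35, SE 0.15, adjusted p = 0.276, edgeR). Between its highest and lowest library Ftl1 differed 1.49-fold, whereas Fth1 differed 3.47-fold.

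The balance of heavy to light chain messages therefore varied between libraries. The ratio of Fth1 to Ftl1 reads was 2.97 ± 0.67 in WT, 3.91 ± 0.82 in Tbk1+/-, 2.69 ± 0.084 in Tak1ΔM/+ and 1.77 ± 0.02 in the double heterozygote (SD, n = 3). It was 2.56 ± 0.44 in libraries labelled Tbk1+/-;Ripk1D138N/D138N and 2.99 ± 0.69 in the triple mutant. The double heterozygous ratios, 1.75 to 1.79, were the lowest of the series and nearly identical. Together the 2 chains took 1.26% of all counts in the double heterozygote, 1.76% in WT and 2.29% in Tbk1+/-. Ferritin has near-identical pseudogenes, and how the counting treated shared reads was not given in the sources used here. Over all libraries Fth1 had 4140054 counts and Ftl1 had 1434523, against 39258 for Ftl2-ps, 16165 for Ftl1-ps1, 1310 for Ftl1-ps2, 207 for Fth-ps3 and 123 for Fth-ps2. Ferritin levels are uncertain to the extent that reads were split among these.

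Fth1, Ftl1 and Hmox1 varied together from library to library. Over 18 libraries r of log2 CPM was 0.89 for Fth1 with Hmox1, 0.86 for Fth1 with Ftl1 and 0.89 for Ftl1 with Hmox1. After removal of genotype means the coefficients were 0.97, 0.97 and 0.94. Slc40a1 went the other way to Hmox1 (-0.57, and -0.83 after removal), as did Slc11a2 to Fth1 (-0.75 and -0.57). The genes most like Fth1 were Eno1 (r = 0.97), Ldha, Eno1b and Pgk1 (0.96 each) and Gapdh (0.95), among the same 8928 genes. Eno1b is a near-identical copy of Eno1, so its reads are uncertain. Ldha averaged 816 ± 286 CPM in WT, 1067 ± 332 CPM in Tbk1+/- and 533 ± 52.7 CPM in the double heterozygote (SD, n = 3). Libraries share depth and preparation here too, so these are descriptions.

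Slc40a1 (ENSMUSG00000025993, chromosome 1, 45908068 to 45926523, minus strand), ferroportin, the iron exporter of animal cells, was lowest on average in the double heterozygote. Levels there were 321, 301 and 297 CPM, against 354, 377 and 558 CPM in WT. The double heterozygous libraries lay below WT, with a log2 difference of -0.49 (SE 0.21, adjusted p = 0.190, edgeR). Tbk1+/- libraries had 301, 462 and 221 CPM and overlapped both. Libraries labelled Tbk1+/-;Ripk1D138N/D138N held 523, 477 and 478 CPM, all above Tbk1+/-, with a log2 difference of 0.59 (SE 0.21, adjusted p = 0.187, edgeR). In the triple mutant Slc40a1 was 474, 366 and 374 CPM, above the double heterozygote in every library (log2 difference 0.40, SE 0.21, adjusted p = 0.377, edgeR). None of these passed the threshold with all libraries. Without Tbk1+/- library 2 the difference of Tbk1+/-;Ripk1D138N/D138N from Tbk1+/- was 0.90 (adjusted p = 0.0106, edgeR), a call.

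Aco1 (ENSMUSG00000028405, chromosome 4, 40143081 to 40198338, plus strand), whose product is cytosolic aconitase or, without its iron-sulfur cluster, iron regulatory protein 1, averaged 92.4 ± 5.38 CPM in WT, 83.4 ± 6.64 CPM in Tbk1+/- and 82.6 ± 4.52 CPM in the double heterozygote (SD, n = 3). Its highest and lowest libraries differed 1.36-fold, the narrowest span of the 10 genes. Libraries labelled Tbk1+/-;Ripk1D138N/D138N (95.2, 100.1 and 98.4 CPM) lay above Tbk1+/- (76.1, 88.9 and 85.4 CPM) without overlap, with a log2 difference of 0.23 (adjusted p = 0.321, edgeR). Ireb2 (ENSMUSG00000032293, chromosome 9, 54863789 to 54912530, plus strand), iron regulatory protein 2, which is degraded when iron is plentiful, had its highest mean in WT, with 55.2, 50.4 and 75.5 CPM. Tbk1+/- (56.3 ± 9.87 CPM) and the double heterozygote (48.5 ± 6.92 CPM, SD, n = 3) overlapped WT. It stood at 38.2, 38.5 and 48.2 CPM in Tak1ΔM/+, at 46.7, 40.2 and 45.9 CPM in libraries labelled Tbk1+/-;Ripk1D138N/D138N and at 47.1, 42.6 and 39.1 CPM in the triple mutant. These 3 genotypes lay below WT without overlap. The log2 differences were -0.54 (adjusted p = 0.341), -0.45 (adjusted p = 0.934) and -0.49 (adjusted p = 0.447, all edgeR), and 15.1%, 10.8% and 14.2% of all genes were without overlap in the same comparisons. Without WT library 3 the differences were -0.36, -0.26 and -0.32.

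Further iron genes were followed in 4 lists. Of 18 other transport genes 12 were tested and edgeR called 0 in any of the 9 comparisons, the joint test or the interaction, with 0 to 3 at an unadjusted p under 0.05; DESeq2 called 0 to 2 and limma-voom 0. Their median log2 difference between the double heterozygote and WT was 0.08, against 0.00 for all genes, and it was 0.16 against Tbk1+/- and 0.41 against Tak1ΔM/+ (0.01 for all genes in both). Trf, the iron carrier transferrin, averaged 95.2 ± 10.4 CPM in WT and 123 ± 11.7 CPM in Tbk1+/- (adjusted p = 0.300, edgeR). Mcoln1, a lysosomal channel that passes iron, was 82.0 ± 6.25 CPM in WT and 61.8 ± 3.19 CPM in Tbk1+/- (adjusted p = 0.338, edgeR). Neither passed the threshold. The libraries of both groups did not overlap, but the share of all genes without overlap there is not given. Both genes were named for a small p in the joint test, which favours such gaps.

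Of 16 genes for iron sensing, ferritin loading and turnover 11 were tested. Pcbp1, a chaperone that hands iron to ferritin, rose in the double heterozygote. Its libraries there held 231, 246 and 207 CPM against 131, 131 and 133 CPM in WT and 126, 115 and 119.5 CPM in Tbk1+/-. The log2 difference was 0.80 against WT (SE 0.21, adjusted p = 0.0326, edgeR) and 0.93 against Tbk1+/- (SE 0.21, adjusted p = 0.00693, edgeR). Tak1ΔM/+ libraries had 254.5, 256 and 155 CPM, so 2 of 3 were as high. The call against WT ended without any single library of WT or of the double heterozygote (adjusted p = 0.0699 to 0.109) and on adding mitochondrial share as a covariate (adjusted p = 0.232). It was the 1 call of the list against WT; against Tbk1+/- there were 4 of 11, with Skp1a, Nfe2l2 and Cul1 lower. Of all genes 6.07% and 14.7% were called in these contrasts. Skp1a and Cul1, subunits of the ubiquitin ligase that degrades Ireb2's product, fell by 0.58 (adjusted p = 0.00169) and by 0.35 (adjusted p = 0.0391), and Nfe2l2, encoding the stress regulator NRF2, fell by 0.37 (adjusted p = 0.0252, all log2 and edgeR). The Cul1 call ended without any single library of either group (adjusted p = 0.0606 to 0.103), that of Nfe2l2 without Tbk1+/- library 1 or any double heterozygous library, and all 4 calls with mitochondrial share as a covariate (log2 differences of 0.47 for Pcbp1, -0.36 for Skp1a, -0.17 for Nfe2l2 and -0.19 for Cul1). The median of the list was -0.18 against WT and -0.27 against Tbk1+/-, where all genes had 0.00 and 0.01.

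Of 19 heme genes 18 were tested and 1 was called in each contrast of the double heterozygote with WT and with Tbk1+/-, where 6.07% and 14.7% of all genes were called. Hp, the hemoglobin scavenger haptoglobin, fell by 2.41 on the log2 scale from 9.36 ± 1.71 CPM in WT to 1.70 ± 0.79 CPM (SD, n = 3, adjusted p = 0.0498, edgeR); the call ended without any single library of WT, of the double heterozygote or of the triple mutant, without Tbk1+/- or Tbk1+/-;Ripk1D138N/D138N library 1 or 3, and without Tak1ΔM/+ library 2. The adjusted p ranged from 0.0181 to 0.158 over all libraries left out in turn, and was 0.0763 in limma-voom and 0.144 with mitochondrial share as a covariate (log2 difference -2.51). Hp averaged 1.33 ± 1.08 CPM in Tak1ΔM/+ (SD, n = 3), below WT without overlap, with a log2 difference of -2.85 (SE 0.72, adjusted p = 0.246, edgeR). Fech, which inserts iron into heme, fell by 0.56 from 83.4 ± 4.87 CPM in Tbk1+/- to 56.5 ± 5.94 CPM (SD, n = 3, adjusted p = 0.0149, edgeR). The Fech call ended without Tbk1+/- library 1 (adjusted p = 0.0506), without double heterozygous library 1 (adjusted p = 0.0725) and on adding mitochondrial share as a covariate (log2 difference -0.50, adjusted p = 0.379). The list's medians were -0.17 and -0.19.

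Of 19 genes for assembly of iron-sulfur clusters 18 were tested, and calls were made in the double heterozygote against WT, Tbk1+/- and Tak1ΔM/+, where 6.07%, 14.7% and 2.79% of all genes were called. Glrx5, a mitochondrial carrier of such clusters, stood at 22.9, 26.6 and 27.8 CPM in the double heterozygote, 11.3, 10.2 and 8.18 CPM in WT, and 7.33, 5.42 and 8.62 CPM in Tbk1+/-. It rose by 1.38 (SE 0.34, adjusted p = 0.0223) and 1.85 (SE 0.34, adjusted p = 0.00200, both edgeR) on the log2 scale. Hspa9, the mitochondrial chaperone mortalin, held 307, 289 and 291 CPM in the double heterozygote against 189, 208 and 144 CPM in WT. It rose by 0.71 against WT (adjusted p = 0.0138), by 0.67 against Tbk1+/- (adjusted p = 0.00910) and by 0.63 against Tak1ΔM/+ (adjusted p = 0.0419, all edgeR). The double heterozygous libraries were the 3 highest of the series for Hspa9. Cisd1, an outer-membrane protein with such a cluster, was lower against Tbk1+/- (log2 difference -0.79, adjusted p = 0.0197, edgeR). The Glrx5 call against WT ended without any single WT library and without double heterozygous library 2 or 3 (adjusted p up to 0.0835). The Hspa9 call against WT ended without WT library 3 (adjusted p = 0.0621) and without double heterozygous library 1 (adjusted p = 0.0569). Its call against Tak1ΔM/+ ended without any single double heterozygous library, without Tak1ΔM/+ library 2 or 3, WT or Tbk1+/- library 1, Tbk1+/-;Ripk1D138N/D138N library 1 or 3, or triple mutant library 2 or 3 (adjusted p up to 0.214). Both kept their calls against Tbk1+/- with any 1 library left out. The Cisd1 call ended without Tbk1+/- library 3 or double heterozygous library 1 or 3 (adjusted p up to 0.0994). When the mitochondrial share entered as a covariate the 6 calls of Glrx5, Hspa9 and Cisd1 ended (adjusted p = 0.0613 to 0.610). The log2 differences of Hspa9 were then 0.74 against WT, 0.71 against Tbk1+/- and 0.64 against Tak1ΔM/+, as large as without the covariate, those of Glrx5 were 1.09 against WT and 1.30 against Tbk1+/-, and that of Cisd1 was -0.45. The list's medians were -0.03 against WT and -0.05 against Tbk1+/-.

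**Figure D4:**
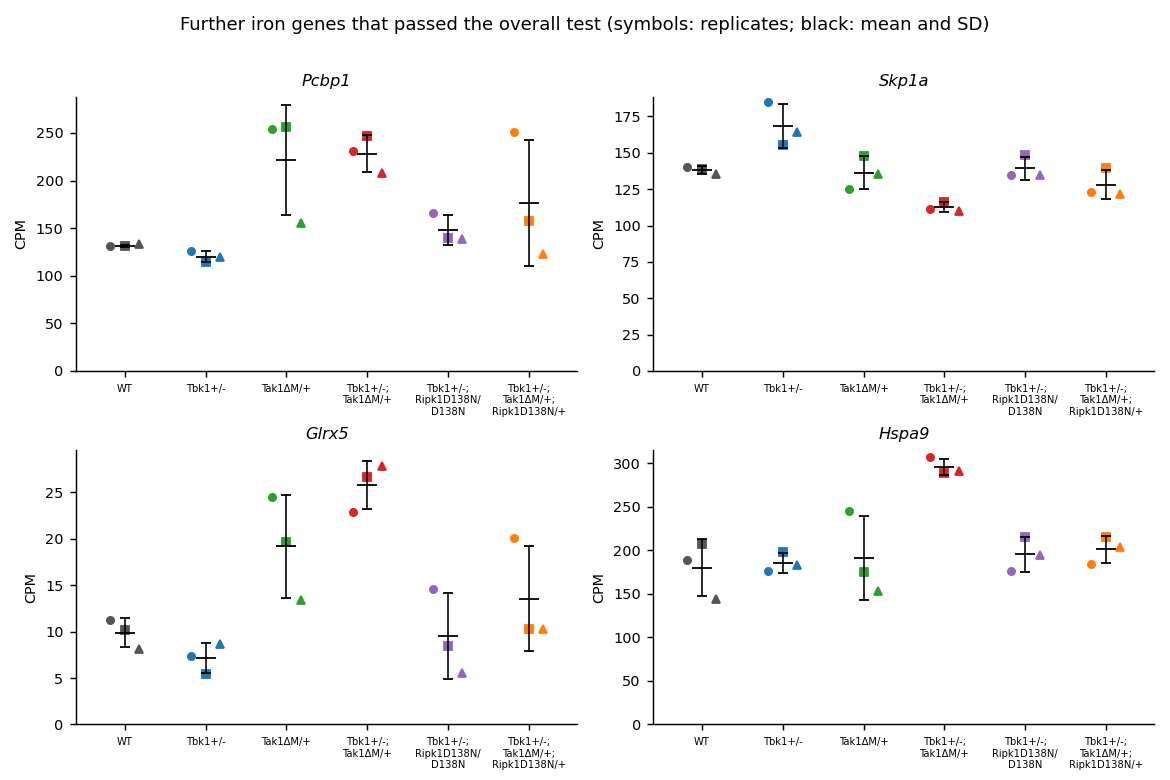
Level in CPM (linear axis from 0) of Pcbp1, Skp1a, Glrx5 and Hspa9, the 4 further iron genes called in the joint test of 6 genotypes, in every library; symbols are libraries, black bars the mean and SD of 3. Hspa9 is highest in the double heterozygous libraries (289 to 307 CPM), Skp1a is lowest in them (110.0 to 116 CPM), and Pcbp1 and Glrx5 stand above all WT libraries there and in the 3 Tak1ΔM/+ libraries.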

How the data were processed

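Messenger RNA was measured in 18 libraries of mouse primary microglia. The deposited table gives unnormalized counts for each gene; the authors aligned with STAR to mm10 and counted with featureCounts, per the submitters' processing notes, while the labels' protocol names RSEM. Versions, annotation and strand setting are not given in the sources used here. Of 50686 identifiers 50376 matched a symbol in GENCODE M21; the other 310 held at most 0.00437% of the counts of a library.

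Genes were kept by filterByExpr (13447 tested), scaled by TMM and tested with edgeR 4.0.16 (R 4.3.3), in 1 quasi-likelihood fit of all 18 libraries with a term per genotype, after a test on simulated data. Benjamini-Hochberg adjustment ran over all tested genes, and a call is an adjusted p under 0.05. DESeq2 1.42.0 and limma-voom (limma 3.58.1) were alternatives. Levels per kilobase divide CPM by the union of annotated exons. Counts of amplified cDNA carry no molecular identifiers, so the zero-count floor covers counting error only.

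The 10 members and all lists were chosen with earlier results of these data known. All members are named; from each further list the up to 4 genes with the smallest unadjusted p in the joint test at a mean of at least 5 CPM are named, with any other called gene named after its values were seen; 1 result is not reported here. Likeness is shown for Steap3 and for Fth1, the other member with the smallest p.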

Additional observations from a re-analysis of the deposited data

Results flagged for a closer look

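The interaction of the Tbk1 and Tak1 alleles for Steap3 was the 1 among the 10 genes with an adjusted p under 0.05. On the log2 scale it was 1.03 (SE 0.23, adjusted p = 0.0327, edgeR): Tbk1+/- lay below WT in 3 of 3 libraries, whereas the double heterozygote (39.3 to 43.6 CPM) overlapped Tak1ΔM/+ (35.4 to 41.9 CPM). The low Tbk1+/- libraries, known when Steap3 was listed, enter this contrast, so the value is a description and its p is no independent test. The adjusted p exceeded 0.05 with mitochondrial share as a covariate (1.19, adjusted p = 0.161) and in a fit of these 4 genotypes alone (1.03, adjusted p = 0.0544), while the difference stayed as large. It also did so without any one of 10 libraries: all of WT, Tbk1+/- 1 and 3, Tak1ΔM/+ 2 and 3, and all of the double heterozygote (up to 0.0966).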

How the results depend on the processing

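Counts of members called moved with several settings, and each is given against the value in the text. In the joint test (1) DESeq2 gave 3, no low-count filter 6, the Y-linked genes as covariate 5, the mitochondrial share as covariate 0, and leaving out 1 library 0 to 4. The calls among all genes moved too, from 966 in the main fit to 2277, 2850, 1483 and 183 with these 4 settings in order. Whether the member counts moved more or less than those of all genes was not tested. In Tbk1+/- against WT (1), limma-voom, the mitochondrial covariate, leaving out the 2 Tbk1+/-;Ripk1D138N/D138N libraries with WT-like Tbk1, and a fit of only the libraries compared each gave 0. Leaving out 1 library gave 0 to 2. Calls among all genes were 7 in the main fit there and 3, 2, 1 and 0 with these settings in order. For the comparisons that follow, the calls among all genes with each setting are not given. In the double heterozygote against WT (0), DESeq2 gave 2, limma-voom 1, no filter 4, a mean of at least 5 CPM 1, the Y-linked covariate 1, only the libraries compared 3, and leaving out 1 library 0 to 2. Against Tbk1+/- (3) the mitochondrial covariate gave 0 and leaving out 1 library 2 to 3. Against Tak1ΔM/+ (0) no filter gave 2, the Y-linked covariate 4, only the libraries compared 1, and leaving out 1 library 0 to 1. In the triple mutant against WT (0) no filter gave 1, and against the double heterozygote (0) DESeq2 gave 1, no filter 2, the Y-linked covariate 2, only the libraries compared 2, and leaving out 1 library 0 to 1. In Tbk1+/-;Ripk1D138N/D138N against Tbk1+/- (0) DESeq2 gave 1, no filter 3, a mean of at least 5 CPM 1, and leaving out 1 library 0 to 3. In the interaction (1) no filter gave 2, the Y-linked covariate 4, the mitochondrial covariate 0, only the libraries compared 0, and leaving out 1 library 0 to 3. Fth1 in Tbk1+/-;Ripk1D138N/D138N against Tbk1+/- turned from -0.78 to 0.01 with the mitochondrial covariate (log2 0.0129, adjusted p = 0.999, edgeR). The cause of these changes was not tested. Replicate numbers are not known to pair libraries. Deviations from genotype means of the 45 same-numbered pairs had correlations of -0.19 to 0.14 (median -0.0048), 5 of them over 0.1. The 90 other-numbered pairs had -0.17 to 0.31 (median -0.00025), 2 of them over 0.1. Of 18 libraries 8 were most like one of their own number, and pairing itself was not tested. With the replicate number as a block the members called stayed at 1 in the joint test and 3 in the double heterozygote against Tbk1+/-, and among further iron genes Cul1 (adjusted p = 0.0532, edgeR) lost its call. The triple mutant could not be tested without its 3 libraries with WT-like Tbk1, since none would be left.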
